A study of Mus musculus with 7 samples.

Results

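The 8 genes described here, Xrcc5, Xrcc6, Prkdc, Dclre1c, Lig4, Xrcc4, Nhej1 and Atm, encode the factors that join broken DNA ends during V(D)J recombination. A region was assigned to one of them when it overlapped the gene body or the 10 kb on either side of it, in the GENCODE M21 annotation of the mouse genome build mm10 (GRCm38). Of 145247 regions with an ATAC-seq peak in at least 1 library, 69 lay at these genes, and no region fell to more than 1 of them. Xrcc4 had 18 regions, Xrcc6 14, Dclre1c 9, Nhej1 9, Xrcc5 7, Prkdc 7, Lig4 3 and Atm 2. The 8 windows held 6.14 regions per 100 kb, against 5.34 per 100 kb over the genome, and single genes ran from 1.70 per 100 kb at Atm to 19.4 at Xrcc6.

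V(D)J recombination assembles immunoglobulin genes in developing B cells by cutting and rejoining the chromosome. Once the Rag1 and Rag2 proteins have cut, the Ku heterodimer, made of the products of Xrcc6 (Ku70) and Xrcc5 (Ku80), binds the ends and recruits the kinase DNA-PKcs, encoded by Prkdc. DNA-PKcs activates the nuclease Artemis, encoded by Dclre1c, which opens the sealed hairpins at coding ends. DNA ligase IV, encoded by Lig4, then seals the ends together with Xrcc4 and with XLF, the product of Nhej1, while the Atm kinase signals the break and holds the ends in place. Loss of a core factor of this pathway stalls B-cell development where immunoglobulin genes are rearranged.

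ATAC-seq maps open chromatin by sequencing fragments released from accessible DNA. There were 7 libraries, 1 for each group, from sorted mouse bone marrow B-lineage cells. WT pre-proB, WT proB and WT preB cells carried Erg fl/fl with no Cre. Erg KO pre-proB cells were Rag1CreT/+;Ergdelta/delta, in which Cre driven from the Rag1 locus deletes Erg in lymphoid progenitors, and Rescue pre-proB, proB and preB cells carried that genotype with IgHVH10tar, a heavy chain allele that is rearranged already. The mice of the study were of both sexes and on a C57BL/6J background, with ages given as 1 range for the whole study, and the sources do not say how many mice, or of what age and sex, made up each library. Stages follow the sample titles. The source names of the 3 Rescue libraries give other stages (proB for the titled pre-proB, preB for the titled proB, pre-proB for the titled preB). Shares and counts on Rescue stages are therefore also given by source name or without these libraries. Heights of single regions go by title unless stated. The lists hold no read coverage over the deleted part of Erg, so the deletion was not checked.

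The lists held 76465 to 105649 peaks, and 42 to 52 of the peaks in each list lay at the end-joining genes. As there were no replicates, no p-value could be given. All intervals below cover counting error only, and a difference between 2 libraries cannot be told apart from a difference between 2 mice or 2 preparations. Height is given as relative height, the deposited fold over background at the summit divided by the median fold of that library at the 46442 regions with a peak in all 7 lists. The folds correspond to whole fragment pileups, and the lowest summit pileup called was 10 to 12, or a relative height of 0.130 to 0.182. A region without a peak could hold up to about that many fragments and is not a region with none. Promoter peaks were counted at 10 marker genes of each of several lineages. For the B lineage there were 9, 10 and 10 in the WT libraries (pre-proB, proB, preB), 5 in Erg KO and 6, 10 and 10 in the Rescue libraries. For T cells there were 6, 6 and 4, then 8, then 8, 6 and 4. NK and innate lymphoid marker genes gave 7, 5 and 5 of 10 in WT, 7 in Erg KO and 7, 7 and 4 in Rescue. Plasmacytoid dendritic marker genes gave 10, 9 and 9 of 10, then 10, then 10, 10 and 9, and myeloid marker genes 7, 5 and 5 of 10, then 6, then 7, 6 and 5, in the same order. Erythroid marker genes, of which 9 were in the annotation, gave 5 in every library. The part of these differences in the results below was not tested.

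For 7 regions away from promoters, on which the results below turn, 200 bases around the summit of the highest peak are shown, read from GRCm38 on the strand of the gene. The Atm region is downstream of its gene and the others are intronic. The first 3 belong to regions that were high in pre-proB cells, the next 3 to regions that were high in proB or preB cells, and the last to a Prkdc region that was lowest in WT proB cells. Capitals mark matches, on either strand, to the letters TGTGGTT (a RUNX motif), CACCTG (an E-box) or GAGGAAGT (a PU.1 motif).
Nhej1 +146.0 kb, chr1:74979135-74979334, minus strand: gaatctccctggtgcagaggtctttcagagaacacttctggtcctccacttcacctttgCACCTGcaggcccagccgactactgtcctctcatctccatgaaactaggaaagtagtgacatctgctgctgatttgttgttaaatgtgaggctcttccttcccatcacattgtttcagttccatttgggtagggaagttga
Atm +100.8 kb, chr9:53435817-53436016, minus strand: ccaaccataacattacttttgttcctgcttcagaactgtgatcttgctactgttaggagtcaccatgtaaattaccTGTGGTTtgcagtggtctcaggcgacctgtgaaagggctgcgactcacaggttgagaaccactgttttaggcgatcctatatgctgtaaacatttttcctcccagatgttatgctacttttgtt
Xrcc5 +52.3 kb, chr1:72359604-72359803, plus strand: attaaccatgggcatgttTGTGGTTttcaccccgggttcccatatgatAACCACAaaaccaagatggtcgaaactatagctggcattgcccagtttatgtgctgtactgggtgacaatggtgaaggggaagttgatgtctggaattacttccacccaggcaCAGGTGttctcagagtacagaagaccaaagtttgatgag
Xrcc4 +32.6 kb, chr13:90056876-90057075, minus strand: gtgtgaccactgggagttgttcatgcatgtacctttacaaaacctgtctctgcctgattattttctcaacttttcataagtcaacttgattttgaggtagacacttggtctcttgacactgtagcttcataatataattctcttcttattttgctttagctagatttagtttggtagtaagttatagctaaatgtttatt
Xrcc4 +79.6 kb, chr13:90009905-90010104, minus strand: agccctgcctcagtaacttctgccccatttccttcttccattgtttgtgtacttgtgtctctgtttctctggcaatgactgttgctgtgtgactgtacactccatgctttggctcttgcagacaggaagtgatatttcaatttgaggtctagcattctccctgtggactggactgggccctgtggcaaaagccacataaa
Xrcc6 +17.0 kb, chr15:82032401-82032600, plus strand: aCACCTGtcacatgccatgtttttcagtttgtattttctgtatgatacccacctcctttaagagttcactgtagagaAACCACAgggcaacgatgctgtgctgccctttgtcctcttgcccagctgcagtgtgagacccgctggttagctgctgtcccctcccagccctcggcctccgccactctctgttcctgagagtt
Prkdc +100.9 kb, chr16:15738692-15738891, plus strand: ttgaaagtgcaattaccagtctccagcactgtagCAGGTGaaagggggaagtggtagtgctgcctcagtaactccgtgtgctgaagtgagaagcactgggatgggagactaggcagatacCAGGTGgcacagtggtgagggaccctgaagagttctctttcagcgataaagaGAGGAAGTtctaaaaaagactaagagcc
Distances run from the main transcription start of the gene to the summit, positive into the gene. Both Xrcc4 sequences held none of the exact letters that were searched, and looser forms of the motifs were not searched.

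Erg belongs to the ETS family of transcription factors, whose strict consensus was searched as CCGGAAG on both strands. RefSeq promoters, from 250 bases before to 50 after the start, were at hand for 7 of the 8 genes, all but Prkdc. That of Xrcc6 began at chr15:82016119, downstream of the main start used for distances, at 82015519. An ETS match lay in 4 of these 7, those of Dclre1c, Lig4, Xrcc4 and Atm, and in 8.86% of all 32851 RefSeq promoters of mouse. The matches are shown with their flanks because they carry the only matches to these letters in these promoters. Looser ETS sites were not searched, here or in the summit windows. Capitals mark the match, and the sequences run along the strand of the gene.
Dclre1c, chr2:3424133-3424161, plus strand: tgcgcaggttcCCGGAAGtggcgcccagg
Lig4, chr8:9977823-9977851, minus strand: cgcagcctccaCTTCCGGctcgcgcgcgg
Xrcc4, first match, chr13:90089731-90089759, minus strand: gccacatcaccCTTCCGGgccggggcgga
Xrcc4, second match, chr13:90089603-90089631, minus strand: ggcttctgttaCCGGAAGaggtgggactt
Atm, chr9:53536645-53536673, minus strand: gctttatagagCCGGAAGcgggaaggcgt
A match is a description of letters and not a bound site. GGGCGG, the GC box, matched in 5 of the 7 promoters against 35.7% of all promoters, and CCAAT in 4 against 37.4%. CCCNNGGG, an EBF motif, matched in that of Atm (13.7% of all) and GCGCATGCG, an NRF1 motif, in that of Lig4 (1.75% of all). The PU.1, RUNX and E-box letters matched in none of the 7, and in 3.20%, 5.27% and 20.2% of all promoters. Nor did a CTCF motif spelled AGGGGGCG (6.07% of all) or a YY1 motif spelled AAGATGGCG (1.40% of all). In the 200-base summit windows, 3 of the 69 regions held the ETS letters (2.58% of all regions), 9 the RUNX letters (10.8%), 12 the E-box (19.9%), 6 the PU.1 letters (7.18%) and 4 the EBF letters (9.26%). The CCAAT letters were found in 21 of the 69 windows (21.1% of all regions), the GC box in 7 (10.5%) and the CTCF, NRF1 and YY1 letters in none (2.03%, 0.262% and 0.344% of all). The GC box can overlap the CTCF letters.

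Every end-joining gene had a promoter peak in every library. The main promoter regions differed far more between genes than between libraries. Either Dclre1c, encoding Artemis, or Xrcc4 had the highest of the 8 promoters in each library, and Xrcc5, encoding Ku80, had the lowest in all 7. Among coding genes with a promoter peak, the Dclre1c promoter stood at the 97.5th to 99.5th percentile of height in every library and the Xrcc6 promoter at the 46.8th to 61.8th. The highest library exceeded the lowest by 1.17-fold at Dclre1c and by 1.85-fold at Xrcc6, with a median of 1.41 over the 8 genes. Over the 12974 coding genes with a promoter peak in all 7 lists, taken at their highest region, that median was 1.56. The +12.4 kb region of Xrcc6 ranged 2.40-fold. As Xrcc6 ranged most by either region, the median of the 8 genes is the same by both. By this measure the end-joining promoters varied about as much as others did.

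**Figure D1:**
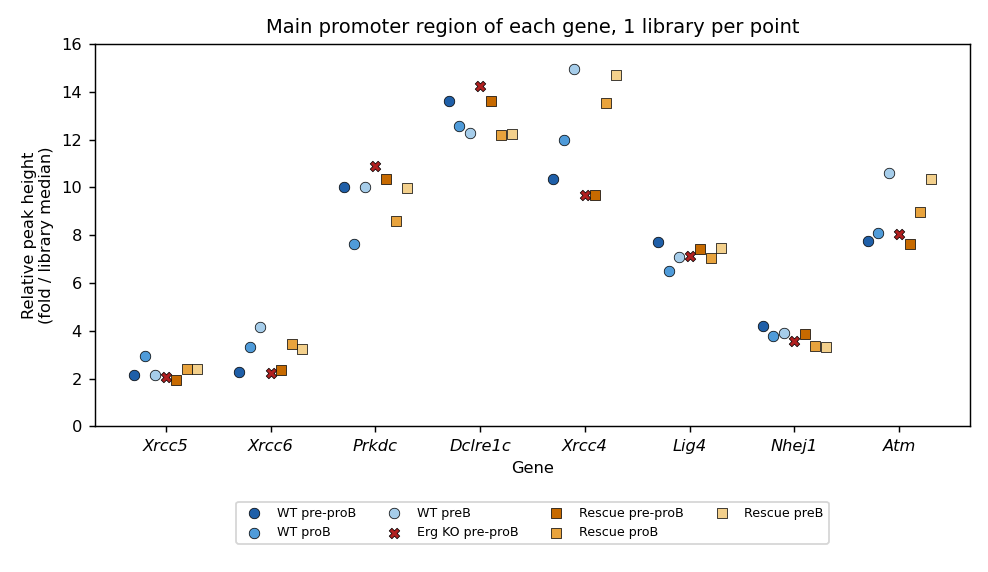
Relative peak height (fold over background divided by the library's median fold at the common regions) at the main promoter region of each gene, with 1 point per library and no error bars, as each group has 1 library. Dclre1c lay between 12.2 and 14.2, Xrcc5 between 1.93 and 2.96, and Xrcc4 was higher in all 4 proB and preB libraries than in the 3 pre-proB libraries.

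At the genes of the end-binding complex, the Xrcc6 promoter had relative heights of 2.28, 3.33 and 4.17 in WT pre-proB, proB and preB cells, 2.25 in Erg KO cells and 2.35, 3.45 and 3.26 in the same 3 stages of Rescue cells. The 3 pre-proB libraries were all below the other 4, and WT preB was 1.83-fold above WT pre-proB. The Xrcc5 promoter, for the partner subunit, gave 2.14, 2.96 and 2.17 in WT, 2.08 in Erg KO and 1.93, 2.41 and 2.38 in Rescue. Here the groups were nearly touching, since WT preB differed from WT pre-proB by 1.01-fold. The Prkdc promoter, shared with Mcm4, which encodes a subunit of the replicative helicase, gave 10.04, 7.63 and 10.02 in WT, 10.9 in Erg KO and 10.4, 8.59 and 9.96 in Rescue. It was lowest in both proB libraries.

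At the gene of the hairpin-opening nuclease, the Dclre1c promoter gave 13.6, 12.6 and 12.3 in WT, 14.2 in Erg KO and 13.6, 12.2 and 12.2 in Rescue. The 3 pre-proB libraries were above the other 4, by small margins. Among the ligation factors, the Xrcc4 promoter rose with stage, from 10.3 in WT pre-proB to 11.98 in proB and 14.97 in preB cells, with 9.69 in Erg KO and 9.67, 13.5 and 14.7 in Rescue. WT preB stood 1.45-fold above WT pre-proB and Rescue preB 1.52-fold above Rescue pre-proB. The Lig4 promoter was the most even of this group, at 7.72, 6.49 and 7.09 in WT, 7.12 in Erg KO and 7.41, 7.04 and 7.44 in Rescue, a 1.19-fold range in which the stages overlapped. The Nhej1 promoter gave 4.205, 3.77 and 3.89 in WT, 3.58 in Erg KO and 3.87, 3.35 and 3.32 in Rescue, also with overlapping stages. The promoter of Atm, the break-signalling kinase, gave 7.77, 8.07 and 10.6 in WT, 8.04 in Erg KO and 7.63, 8.97 and 10.4 in Rescue, and both preB libraries were above the rest.

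Most of these starts were shared with a neighbour. The main starts of 5 of the 8 genes lay within 1000 bp of the start of a coding gene on the other strand, an arrangement found at 9.98% of 21951 coding genes. Lig4 began 21 bp from Abhd13, Xrcc4 154 bp from Tmem167, Atm 307 bp from Npat, a histone gene coactivator, Prkdc 489 bp from Mcm4, and Xrcc6 644 bp from Desi1, whose transcript overlaps it. The Dclre1c promoter region also covered a start of Meig1, the -5.0 kb region of Dclre1c lay at another start of Meig1, its +50.9 kb region at Suv39h2, a histone methyltransferase gene, and the +32.0 kb region of Xrcc6 at Snu13, a spliceosome gene. A peak between 2 starts cannot be credited to either gene. At Xrcc6, the highest region was not this promoter but the +12.4 kb region, at an internal start of the gene.

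**Figure D2:**
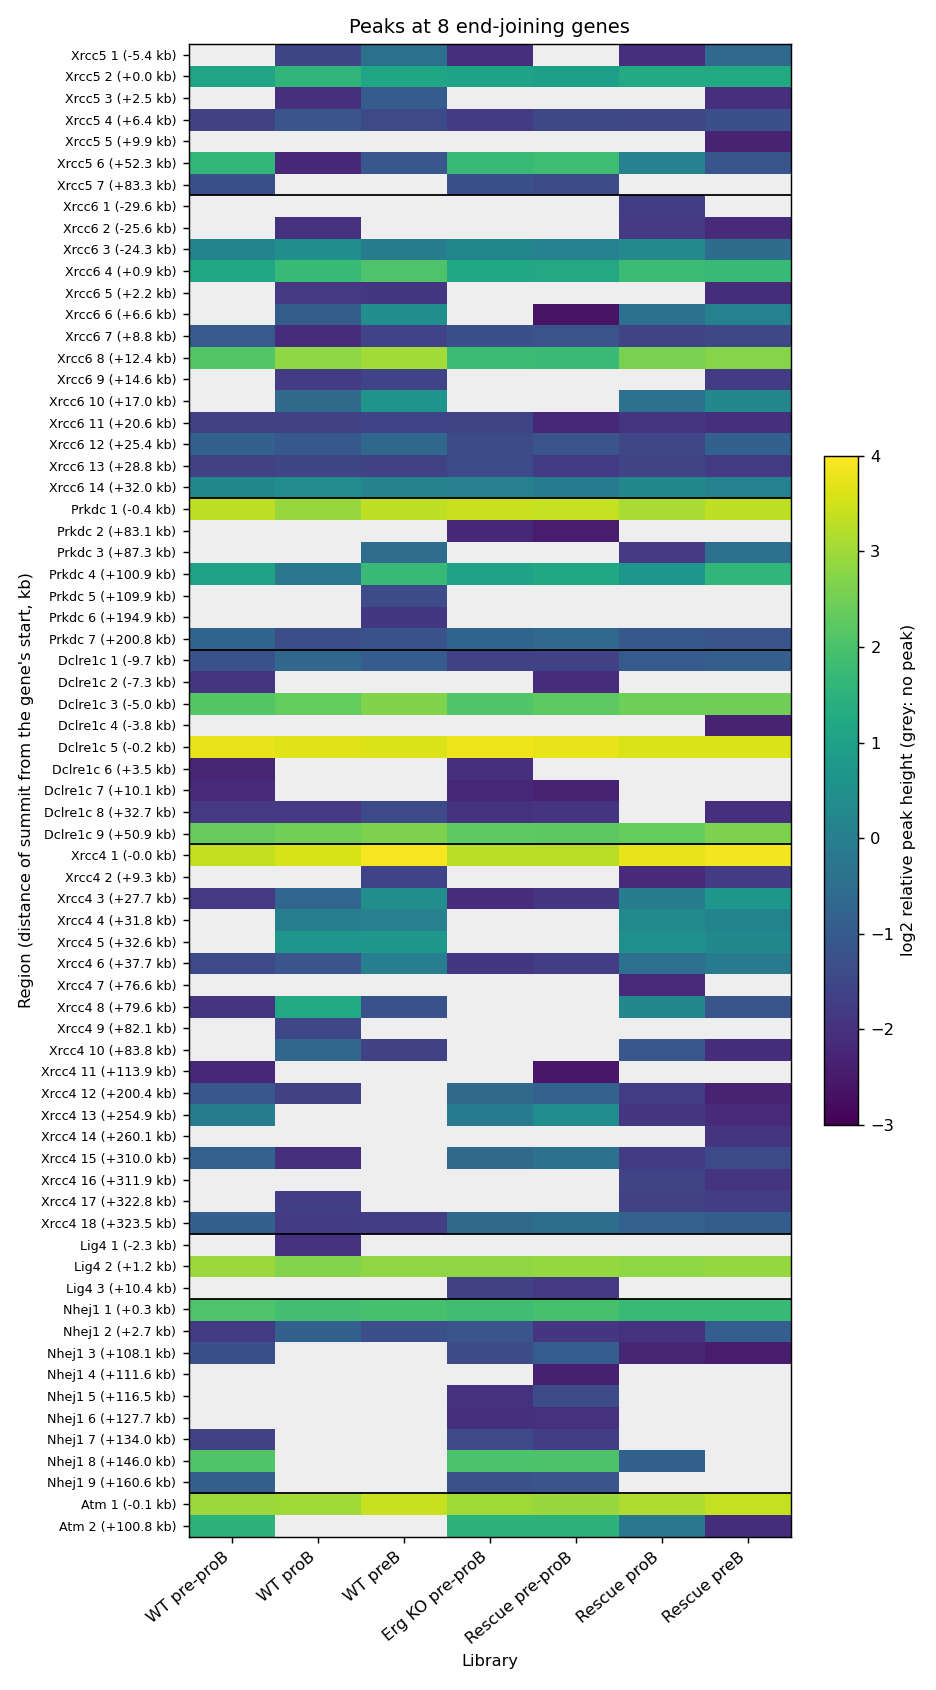
log2 relative peak height of the 69 regions (rows, ordered from the 5′ to the 3′ end of each gene, with the distance of the summit from the gene's start in kb) in the 7 libraries (columns), where grey means no peak. The 8 promoter rows are coloured in every column, and all gaps fall at other regions, among them the +146.0 kb region of Nhej1, at 4.27 in WT pre-proB and with no peak in WT proB.

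WT and Erg KO pre-proB cells differed little at these genes. Of 41 end-joining regions with a peak in WT pre-proB, 3 had none in Erg KO pre-proB, or 7.32% (95% Wilson interval 2.52 to 19.4%), against 6.38% of all regions. In the other direction, 5 of 43 regions of Erg KO had no peak in WT, or 11.6% (5.07 to 24.5%), against 13.2% of all. None of the 38 regions with both peaks was past 2-fold in relative height, where 0.518% of all regions were. All 8 unshared regions were low in the library of the pair that had the peak. The 3 found in WT alone of the pair were the -7.3 kb region of Dclre1c and the +79.6 kb region of Xrcc4, both at 0.265, and the +113.9 kb region of Xrcc4 at 0.217. Those found in Erg KO alone were the -5.4 kb region of Xrcc5 at 0.242, the +83.1 kb region of Prkdc at 0.220, the +10.4 kb region of Lig4 at 0.319 and the +116.5 and +127.7 kb regions of Nhej1 at 0.253 and 0.242. Each of these peaks was less than 3 times the lowest relative height called. In Rescue pre-proB, 5 of the 8 had the state of Erg KO and the rest that of WT. The same share over all regions is not given here, so no reading is drawn from it.

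Ratios of summit pileups gave the precision of these comparisons. The interval for Erg KO over WT pre-proB lay off 1 at 2 of the 38 regions, against 6.27% of all regions. One was the internal +12.4 kb region of Xrcc6, at 360 fragments in WT and 316 in Erg KO and a scaled ratio of 0.801 (0.686 to 0.934). The other was the Nhej1 promoter, at 348 and 325 fragments and a ratio of 0.852 (0.730 to 0.994). For the remaining promoters the ratio ran from 0.922 (0.825 to 1.03) at Lig4 to 1.09 (0.990 to 1.19) at Prkdc, so that at Prkdc a change beyond 1.19-fold lay outside the counting interval. Rescue pre-proB, the second Erg-deficient library of this title, gave 0.786 (0.676 to 0.914) against WT at the Xrcc6 region and 0.921 (0.794 to 1.07) at the Nhej1 promoter. It lay off 1 at 2 of 39 regions, against 7.06% of all, the second being the +254.9 kb region of Xrcc4 at 1.39 (1.05 to 1.87). These shares stood near those of all regions.

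Between the stages of WT development, the peaks gained, lost or past 2-fold lay away from the main promoters of these genes. The main promoters changed too, by less. Their pileup ratios of WT proB over pre-proB ran from 0.760 (0.684 to 0.845) at Prkdc to 1.46 (1.21 to 1.77) at Xrcc6. Those of WT preB over proB ran from 0.729 (0.588 to 0.901) at Xrcc5 to 1.32 (1.18 to 1.47) at Atm. Of the 41 end-joining regions of WT pre-proB, 11 had no peak in WT proB, or 26.8% (15.7 to 41.9%), against 34.4% of all regions. Of 43 regions of WT proB, 13 had no peak in WT pre-proB, or 30.2% (18.6 to 45.1%), against 31.9% of all. Of the 30 regions with both, 6 were past 2-fold, 2 higher and 4 lower in proB, or 20% (9.51 to 37.3%), against 29.8% of all, of which 9057 were higher and 8671 lower. From WT proB to preB, 6 of 43 regions were lost, or 13.95% (6.56 to 27.3%), against 26.5% of all, and 4 of 41 regions of preB were absent from proB, or 9.76% (3.86 to 22.5%), against 10.6% of all. Of 37 regions with both, 9 were past 2-fold, 8 higher and 1 lower in preB, or 24.3% (13.4 to 40.1%), against 13.7% of all, of which 3921 were higher and 4898 lower. The difference in direction between the end-joining regions and all regions was not tested. Every interval included the share of all regions, and regions of one gene are not independent of each other.

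**Figure D3:**
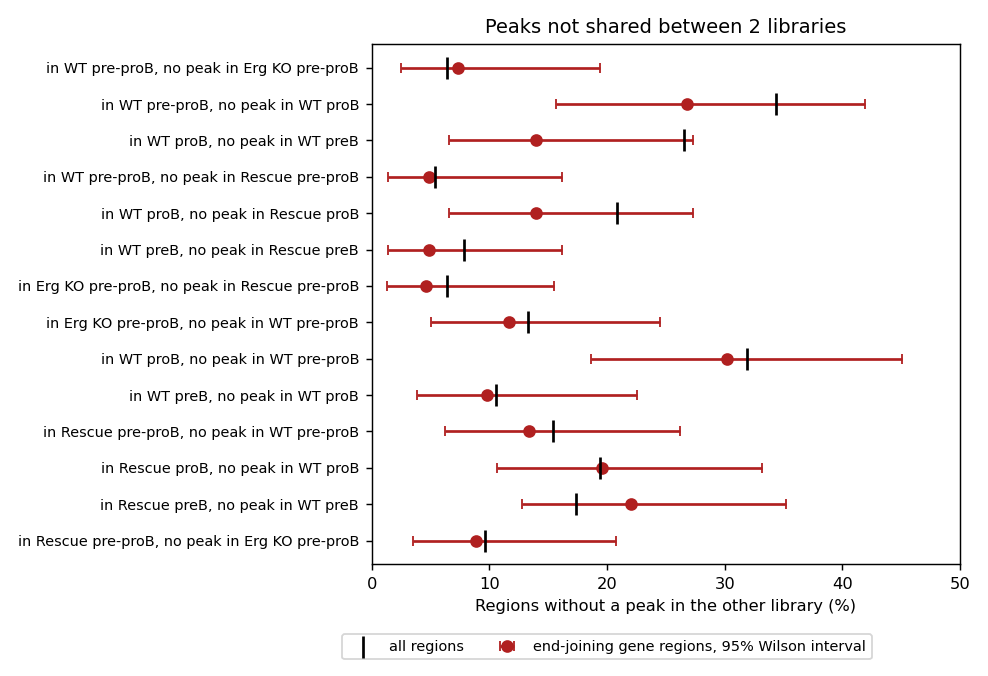
Percentage of regions with a peak in the first library that had none in the second, for regions of the end-joining genes (circles with 95% Wilson intervals, 41 to 50 regions) and for all regions (vertical ticks). Every interval spans the tick of all regions, and the shares of the end-joining genes are highest between WT pre-proB and WT proB, at 26.8 and 30.2%.

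Among regions lost from pre-proB to proB, the highest 3 lay at Nhej1, Atm and Xrcc4. The +146.0 kb region of Nhej1, inside an intron near the 3′ end of the gene, had a relative height of 4.27 in WT, 4.04 in Erg KO and 4.09 in Rescue cells of the pre-proB title. It had no peak in WT proB, WT preB or Rescue preB and stood at 0.563 in Rescue proB. These heights stood for 353, 367 and 408 fragments against 39 in Rescue proB, and in each pre-proB library the region stood slightly above the promoter of its own gene. Some of its neighbours also had a peak in each pre-proB library, at lower height. The +134.0 kb region gave 0.325, 0.363 and 0.300 and the +160.6 kb region 0.554, 0.418 and 0.450 in WT, Erg KO and Rescue pre-proB, and neither had a peak elsewhere. The +108.1 kb region gave 0.410, 0.385 and 0.530 in these 3 libraries and 0.211 and 0.185 in Rescue proB and preB. Other neighbours had no peak in WT pre-proB. The +116.5 and +127.7 kb regions had peaks in Erg KO and Rescue pre-proB alone. The +111.6 kb region had one in Rescue pre-proB alone, at 0.190.

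The +100.8 kb region of Atm, 3′ of the gene, was the only region of this gene beside the promoter. It gave 2.86 in WT, 2.86 in Erg KO and 2.87 in Rescue pre-proB cells, no peak in WT proB or preB, and 0.873 and 0.235 in Rescue proB and preB. The +254.9 kb region of Xrcc4 gave 0.952, 0.934 and 1.32 in WT, Erg KO and Rescue pre-proB, no peak in WT proB or preB, and 0.268 and 0.222 in Rescue proB and preB. All 3 regions were thus high in each pre-proB library, whether Erg was present or not. Another such region kept a peak throughout. The +52.3 kb region of Xrcc5, in intron 16, had relative heights of 3.11, 0.220 and 0.470 in WT pre-proB, proB and preB, 3.30 in Erg KO and 3.53, 1.07 and 0.457 in Rescue. WT pre-proB was 14.2-fold above WT proB, at 257 against 17 fragments, and was above the promoter of the same gene, at 2.14.

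The highest 3 regions gained from pre-proB to proB lay at Xrcc4 and Xrcc6. At Xrcc4, the +32.6 and +31.8 kb regions, in intron 3, had no peak in any pre-proB library. The first gave 1.61 and 1.65 in WT proB and preB and 1.42 and 1.21 in Rescue proB and preB, or 97 to 131 fragments. The second gave 1.01 and 1.03 in WT and 1.24 and 1.11 in Rescue. The +17.0 kb region of Xrcc6, in intron 10, also had no peak in the pre-proB libraries, and gave 0.671 and 1.53 in WT proB and preB and 0.775 and 1.17 in Rescue. By title, it was higher in preB than in proB in both genotypes.

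Other regions of Xrcc4 and Xrcc6 were also higher at the later stages. The +27.7 kb region of Xrcc4 gave 0.277, 0.610 and 1.38 in WT, 0.231 in Erg KO and 0.270, 0.986 and 1.63 in Rescue. Its +37.7 kb region gave 0.361, 0.451 and 1 in WT, 0.275 in Erg KO and 0.300, 0.732 and 0.938 in Rescue. At both, the 3 pre-proB libraries were below the other 4. The +79.6 kb region of Xrcc4 was highest in proB cells, at 2.40 in WT proB and 1.21 in Rescue proB. It gave 0.265 in WT pre-proB, 0.424 in WT preB and 0.457 in Rescue preB, and neither Erg-deficient pre-proB library had a peak. WT proB was 9.06-fold above WT pre-proB and 5.66-fold above WT preB.

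The internal +12.4 kb region of Xrcc6, the highest of that gene, gave 4.35, 7.07 and 8.197 in WT pre-proB, proB and preB, 3.48 in Erg KO and 3.42, 5.99 and 6.64 in Rescue. By title, stage order held in both genotypes, and each Erg-deficient library was below the WT library of its title. By source name the Rescue heights were 6.64, 3.42 and 5.99 at pre-proB, proB and preB, so neither held. The pileup ratio of Rescue over WT was 0.846 (0.744 to 0.960) at the proB title and 0.810 (0.718 to 0.915) at the preB title. Such intervals lay off 1 at 11 of 37 and 5 of 39 regions of the end-joining genes at these titles. This region was named with its values known. The shares of all regions with such intervals, or with each Erg-deficient library below WT by title, are not given here. Both Erg-deficient pre-proB libraries also had fewer B-lineage marker promoters than WT pre-proB, as given above. At the proB and preB titles the count was 10 in both genotypes. The part of these counts in the heights was not tested. The +6.6 kb region of Xrcc6 gave 0.524 and 1.41 in WT proB and preB, 0.160, 0.732 and 1.06 in Rescue pre-proB, proB and preB, and no peak in WT or Erg KO pre-proB.

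Prkdc followed another order. Its +100.9 kb region, in intron 49, gave 2.05, 0.878 and 3.26 in WT pre-proB, proB and preB, 2.03 in Erg KO and 2.25, 1.61 and 3.04 in Rescue. By title, it was lowest in proB and highest in preB in both genotypes, and WT preB was 3.71-fold above WT proB. The +87.3 kb region had a peak in WT preB at 0.712, Rescue preB at 0.753 and Rescue proB at 0.282 and in no other library. Dclre1c and Lig4 had no region away from a start above 1. At Dclre1c the +32.7 kb region ran from 0.247 to 0.364 and was absent from Rescue proB, and at Lig4 the other 2 regions were the +10.4 kb region, seen in Erg KO and Rescue pre-proB, and the -2.3 kb region, seen in WT proB at 0.256.

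**Figure D4:**
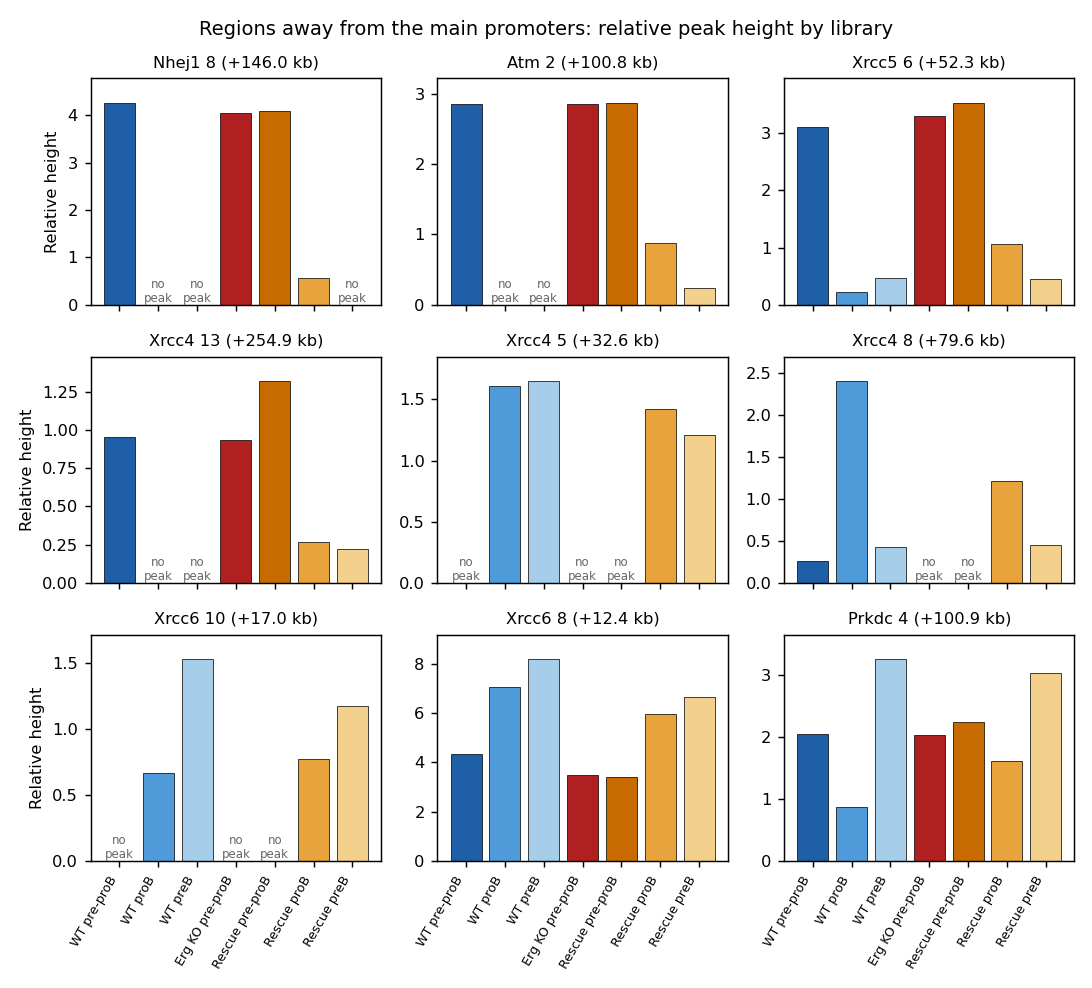
Relative peak height (vertical axis, from 0, with a scale for each panel) in the 7 libraries at 9 regions away from the main promoters, 1 bar per library and no error bars, as each group has 1 library. The top row and the first panel of the middle row are high in the 3 pre-proB libraries. The next 4 panels are highest in proB or preB libraries. Of these, the +79.6 kb region of Xrcc4 is high in proB alone. The +12.4 kb region of Xrcc6 has 3.42 or more in every library. The Prkdc region is lowest in WT proB at 0.878.

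Over all 7 libraries, 4 of the 69 regions had a peak in the 3 pre-proB libraries and in none of the other 4 (11.5% of all regions), at Xrcc5 (+83.3 kb), Dclre1c (+10.1 kb) and Nhej1 (+134.0 and +160.6 kb). Another 4 had a peak in the 4 proB and preB libraries and in none of the 3 pre-proB (5.19% of all), at Xrcc4 (+31.8, +32.6 and +83.8 kb) and Xrcc6 (+17.0 kb). The first 4 reached at most 0.554 and the second 4 reached 0.622 to 1.65. With the Rescue libraries left out these counts were 9 and 8, and by source name both were 0. Leaving out libraries can only keep or raise such counts, and the shares of all regions under these rules are not given here. A peak in all 7 lists was found at 26 regions, or 37.7%, against 32.0% of all regions. Away from promoters these shares were 24.6% and 25.7%. In 5 of these 26 the pre-proB libraries were all above the other 4 (25.2% of all such regions), and in 9 they were all below (30% of all). The 5 were the promoters of Prkdc and Dclre1c, the +52.3 kb region of Xrcc5, the +8.8 kb region of Xrcc6 and the +200.8 kb region of Prkdc. The 9 were the promoters of Xrcc5, Xrcc6, Xrcc4 and Atm, the +12.4 kb region of Xrcc6, the +27.7 and +37.7 kb regions of Xrcc4 and the -9.7 and -5.0 kb regions of Dclre1c. By source name both counts were 0. In none of the 26 did the 3 WT libraries lie all above the 4 Erg-deficient libraries (2.11% of all) or all below them (0.896% of all).

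**Figure D5:**
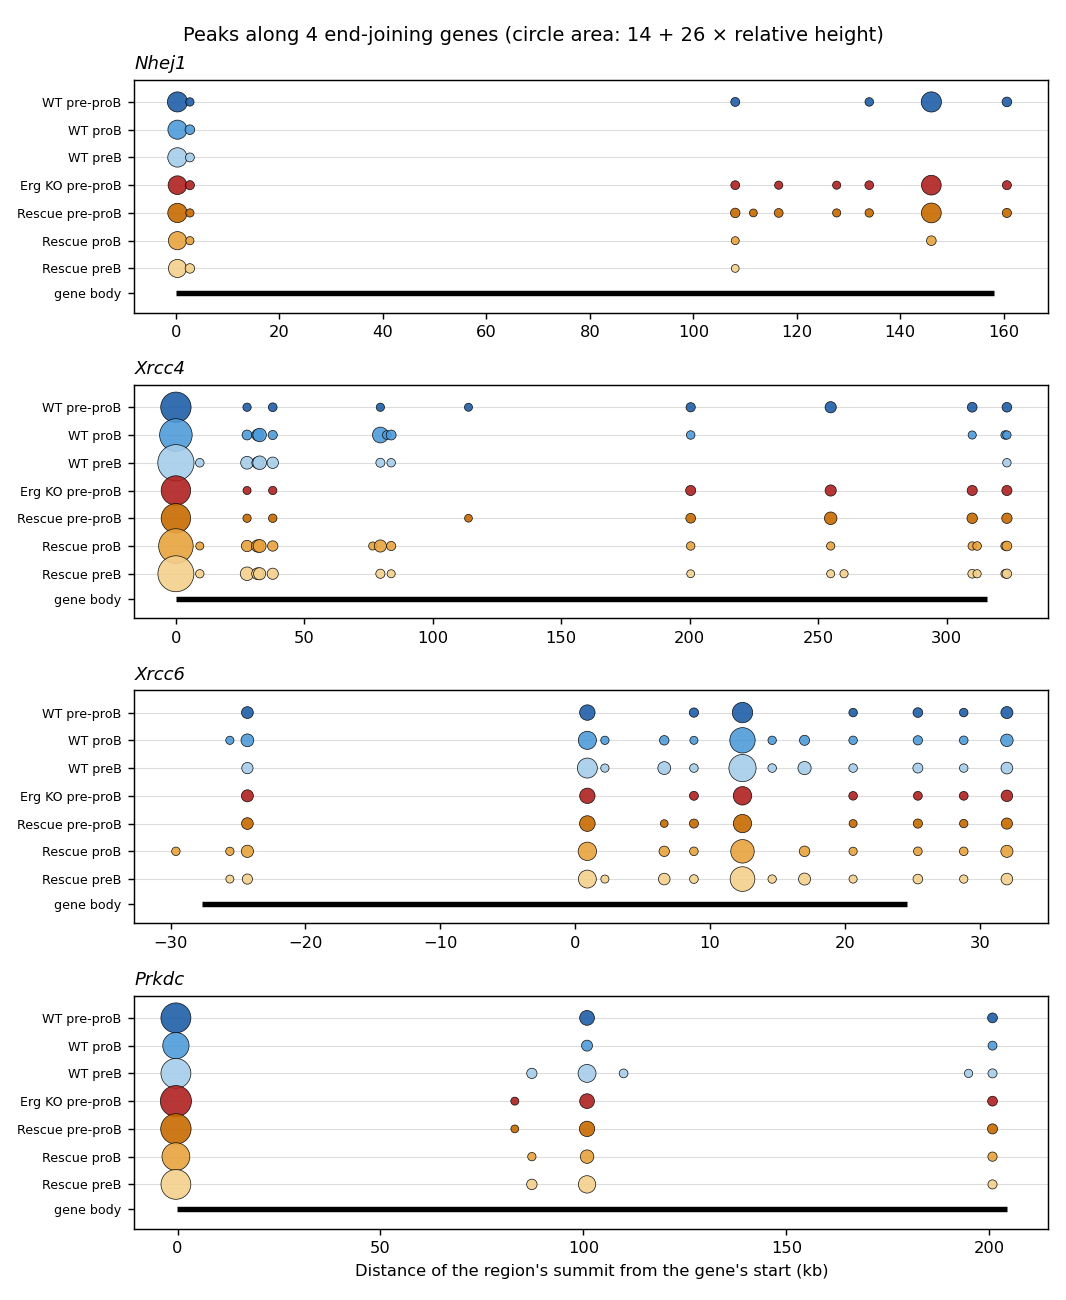
Peaks of the 7 libraries along Nhej1, Xrcc4, Xrcc6 and Prkdc, placed by the distance of the region's summit from the gene's main start in kb, with the area of each circle growing with relative height and the gene body as a black bar. Beyond 100 kb Nhej1 has large circles in the 3 pre-proB lanes, and Xrcc4 has circles near 32 kb in the proB and preB lanes.

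Rescue cells, which lack Erg but carry a rearranged heavy chain allele, were set against WT cells by titled stage. At pre-proB, 2 of 41 WT regions had no Rescue peak, or 4.88% (1.35 to 16.1%), against 5.39% of all, 6 of 45 Rescue regions had no WT peak, or 13.3% (6.26 to 26.2%), against 15.4% of all, and none of 39 was past 2-fold (0.675% of all). At proB, 6 of 43 WT regions had no Rescue peak, or 13.95% (6.56 to 27.3%), against 20.8% of all, and 9 of 46 Rescue regions had no WT peak, or 19.6% (10.7 to 33.2%), against 19.4% of all. Past 2-fold were 2 of 37 (12% of all), the +52.3 kb region of Xrcc5, 4.88-fold higher in Rescue, and the +2.7 kb region of Nhej1, at 0.561 in WT and 0.254 in Rescue. At preB, 2 of 41 WT regions had no Rescue peak, or 4.88% (1.35 to 16.1%), against 7.87% of all, 11 of 50 Rescue regions had no WT peak, or 22.0% (12.8 to 35.2%), against 17.3% of all, and 1 of 39 was past 2-fold (3.38% of all), the +2.5 kb region of Xrcc5, at 0.515 in WT and 0.247 in Rescue.

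The highest 3 regions lost from WT pre-proB to WT proB had peaks in Rescue proB, at Nhej1 (+146.0 kb, 0.563), Atm (+100.8 kb, 0.873) and Xrcc4 (+254.9 kb, 0.268). That they had no WT proB peak follows from how they were picked. Of the other lost regions, only the +108.1 kb region of Nhej1 had a Rescue proB peak, at 0.211. The share of all lost regions with a Rescue proB peak is not given here. The +52.3 kb region of Xrcc5 was also higher in Rescue proB than in WT proB. In Rescue preB the Atm and Xrcc4 regions kept peaks of 0.235 and 0.222. Of the marker lists, Rescue proB had 7 NK and innate lymphoid promoters with a peak against 5 in WT proB, 6 myeloid against 5 and 10 plasmacytoid dendritic against 9, with 6 T-cell promoters in both. Their part in these peaks was not tested.

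The 2 Erg-deficient pre-proB libraries, with and without the rearranged allele, were close at these genes. Of 43 Erg KO regions, 2 had no Rescue pre-proB peak, or 4.65% (1.28 to 15.5%), against 6.37% of all, and of 45 Rescue regions, 4 had no Erg KO peak, or 8.89% (3.51 to 20.7%), against 9.64% of all. None of 41 was past 2-fold (0.149% of all). The interval of the pileup ratio lay off 1 at 2 of the 41, against 3.66% of all, the +254.9 kb region of Xrcc4 at 1.42 (1.07 to 1.89) and the +2.7 kb region of Nhej1 at 0.591 (0.347 to 0.993).

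Other genes of end joining and break repair were taken from a list of 30. All 30 had a promoter peak in all 7 lists. The pre-proB libraries were all above the others at 9 of them (30%) and all below at 12 (40%). Of 12974 coding genes with a promoter peak in all 7 lists, these shares were 14.6% and 40.8%, and the median of highest over lowest library was 1.52 in the list and 1.56 over all. The genes named here were picked for their part in V(D)J joining, with their values known. Dntt, encoding the terminal transferase that adds bases at junctions, had relative heights of 6.08, 1.95 and 2.85 in WT pre-proB, proB and preB, 6.12 in Erg KO and 6.32, 2.69 and 3.09 in Rescue. Rag2, encoding part of the recombinase, went the other way, with 0.590, 2.07 and 2.38 in WT, 0.451 in Erg KO and 0.550, 1.39 and 2.07 in Rescue. Rag1 gave 2, 3.45 and 4.45 in WT, 1.96 in Erg KO and 2.03, 2.89 and 4.06 in Rescue, and Rag1CreT/+ cells carry the Cre transgene under this gene's control. Paxx, encoding a Ku-binding accessory factor, showed overlapping stages at 3.55 to 5.17. The highest library stood 5.28-fold above the lowest at Rag2, against 1.17 to 1.85-fold at the main promoters of the 8 end-joining genes.

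The promoters of other genes most like those of Lig4 and Xrcc6 were found by the Euclidean distance between centred log2 heights over the 7 libraries, among 12972 coding genes. The nearest to Lig4 were Nxt1 (0.0677), Sgo1 (0.0746) and Prdm9 (0.0866), against a median distance of 0.627. For Xrcc6 they were Zfp771 (0.103), Tgfbr2 (0.120) and Gnai2 (0.123), against a median of 0.795.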

How the data were processed

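Peak lists of 7 ATAC-seq libraries were used as deposited, 1 list per library with no pooling. According to the labels and the methods of the study, reads were processed with CASAVA 1.8.2, aligned to mm10 with Bowtie2, passed through Picard and called with MACS2, with no other versions or options given in the sources used here. The methods name sonication and the labels name Tn5 for fragmentation, and the shift of read ends and handling of duplicates, which set peak number and width, are not given. The score deposited by the authors was used to rank peaks, the ratio (fold over background at the summit) deposited by the authors as height, and the −log10 p and −log10 q values deposited by the authors for ties and filters. Folds were whole multiples of 1 step per library (within 0.05 of a step for at least 99.99% of peaks), which gave summit pileups.

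Peaks of all lists were merged where they overlapped by at least 1 bp. A promoter was a region within 1000 bp of a start of the GENCODE M21 basic annotation. Starts marked as incomplete were left out, and Nhej1, left with none, took the 5′ end of its gene record. All peaks lay within the GRCm38 chromosome lengths. The named regions were each gene's main promoter, all regions unshared between WT and Erg KO pre-proB, the highest 3 gained and lost from WT pre-proB to proB, regions at another gene's start, and 3 genes nearest in pattern to Lig4 and Xrcc6. Other regions were named with their values known. The genes, lists and rules were chosen with earlier results of these data known. Intervals are Wilson for shares, exact Poisson or binomial for pileups. The scripts (Python 3.11.15, pandas 2.3.3) were tested on simulated lists. Alternatives are given in the closing section.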

Additional observations from a re-analysis of the deposited data

Results flagged for a closer look

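At the +52.3 kb region of Xrcc5, the change from proB to preB, by title, went opposite ways in the 2 genotypes. The log2 ratio of relative heights was 1.097 in WT (17 and 30 fragments) and -1.23 in Rescue (75 and 36 fragments). The lowest pileup called was 12 in WT proB and 11 in WT preB, so the WT side rests on low peaks. By source name, Rescue stood at 3.53 in proB and 1.07 in preB, also a fall. The difference was not tested, as each group had 1 library. Such opposite changes past 2-fold were found at 1 of 33 regions of the end-joining genes and at 17 of 58465 regions in all with the 4 peaks, and at none of 28 and 17 of 53559 from pre-proB to proB.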

How the results depend on the processing

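The 26 results were 14 shares of unshared regions, 7 shares past 2-fold, 4 counts across stages and the promoter count. They were recomputed under alternatives, 133 values in all. Of these values, 103 stayed within the counting interval of a share or within 1.5 times a count, and 30 did not. Shares and counts have no direction, so a reversal could not occur. The counting intervals of the shares are wide, so staying within them is a weak check. All 56 pairs of gene and library kept a promoter peak with every alternative tried for it. Gene bodies alone, reciprocal overlap of 50%, and leaving out regions at other genes' starts moved none.

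By source name, regions without a peak in the other library came to 19.5% (WT pre-proB against Rescue pre-proB), 34% (the reverse), 30.2% (WT proB against Rescue proB), 33.3% (the reverse), 23.3% (Erg KO against Rescue pre-proB) and 34% (the reverse). Shares past 2-fold came to 21.2%, 26.7% and 14.3% (Rescue over WT, pre-proB, proB and preB) and 24.2% (Rescue over Erg KO), and all 4 counts across stages came to 0. With lists cut to 76465 peaks, the share absent from WT pre-proB was 2.94% for Erg KO and 3.03% for Rescue, the share past 2-fold from WT pre-proB to proB 8.33%, the regions with pre-proB libraries all above 2, and those with a peak in the proB and preB libraries alone 7. With −log10 q of at least 10, the share of Rescue preB regions absent from WT preB was 12.1%. By percentile rank, with 10 points as the threshold, the shares were 13.2% (Erg KO over WT), 43.3% (WT proB over pre-proB), 45.9% (WT preB over proB), 15.4%, 32.4% and 20.5% (Rescue over WT by stage) and 14.6% (Rescue over Erg KO). This threshold is not the same size of change as 2-fold. Without scaling, 0% were past 2-fold for Rescue over WT preB. With the Rescue libraries left out, an alternative added after seeing the data like all those for peaks found at some stages alone, 9 regions had a peak in the pre-proB libraries alone and 8 in the proB and preB libraries alone. For none of these alternatives is the share of all regions given.

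No paired analysis was possible because each group had 1 library. Depth limits the low peaks. Of the 69 regions, 10 had a peak in 1 library alone, and these reached at most 0.379 in relative height. The share of all regions with a peak in 1 library alone is not given here.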
